A study of Mus musculus with 20 samples.

Results

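The 8 genes described here mark macrophages living in healthy tissue or serve such cells in binding and clearing the dead, and their levels were measured in 20 mouse diaphragms. The members were chosen by name as *Cd163*, *Siglec1*, *Folr2*, *Timd4*, *Mertk*, *Gas6*, *Cx3cr1*, and *Gata6*. They are 8 of the 34797 gene names of the array and had 10 of its 55681 probes, with 2 probes each for *Siglec1* and *Cx3cr1* and 1 for each of the others, and all 10 passed the filter on dim probes. All animals were female C57Bl/6 mice that received 100 μL into the pleural cavity at the age of 8 weeks, and RNA was taken from the snap-frozen part of the diaphragm 12 weeks later. Control mice received only the vehicle, 0.5% BSA in saline, in which the asbestos was also dispersed. SFA and LFA mice received 25 μg of short or long amosite asbestos, both made from the same parent material, and NTS and NTL mice received 5 μg of short or long carbon nanotubes (the study's SNT and LNT), with 4 mice and 4 arrays in each of the 5 groups. The short asbestos was ground from long fibers and the long preparation contains fibers of mixed length, so the groups differ in length distribution rather than in a single length, and the nanotubes of each length come from a single sample of different origin.

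Resident macrophages settle in a tissue early in life or are replaced slowly from blood monocytes, and each tissue gives them a characteristic set of receptors. Siglec1 binds sialic acid on other cells, Folr2 binds folate, and Cd163 takes up complexes of haptoglobin and hemoglobin. Timd4 recognizes phosphatidylserine on dying cells directly, whereas the kinase Mertk recognizes it through a bridging ligand such as Gas6, and both routes lead to engulfment. Cx3cr1 is the receptor of the chemokine fractalkine and is carried by monocytes and many tissue macrophages. Gata6 is the transcription factor that gives the large macrophages of the serous cavities, including the pleural cavity that borders the diaphragm, their identity, although mesothelial cells also use it.

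A level is given here as log2 of the scanner's processed signal relative to the 75th percentile of the same array, so that a difference of 1 is a 2-fold difference. Levels of different probes cannot be ranked against each other. A probe was called when limma's Benjamini-Hochberg adjusted p over all 36930 tested probes was under 0.05 and the log2 change was at least 1 in size. Where a gene had 2 probes, it is represented by the brighter. The p-values weigh a group difference against the spread between arrays within groups, pooled over the 5 groups. That spread holds differences between slides as well as between mice, and the number of arrays limits the precision. In RNA from whole tissue, fewer cells of a type and less RNA per cell cannot be told apart.

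Between 53.0% and 68.1% of probes were well above background on each array. The labeled tissue was borne out by the skeletal muscle markers, all 11 of which were well above background on every array. Liver transcripts were uneven. The mean level of 10 liver markers had its lowest and highest values at −0.68 and 4.58 in control, −1.93 and 7.05 in SFA, −1.15 and 7.47 in LFA, −0.88 and 8.50 in NTS, and 0.56 and 4.54 in NTL. It was above 6 on 5 arrays, SFA replicate 2, LFA replicates 1 and 3, and NTS replicates 3 and 4. Because Kupffer cells, the resident macrophages of the liver, carry several of the genes described here, these values are set beside the results they touch. The arrays lay on 3 slides, of which slide 2 held all 5 groups, slide 1 lacked SFA and NTL, and slide 3 lacked NTS.

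Of the 8 genes, 4 were called higher in LFA than in control (*Siglec1*, *Cx3cr1*, *Timd4*, and *Folr2*), against 2.22% of all tested probes, and none was called lower, against 1.72%. In NTL the same 4 genes and *Gata6* were called higher, 5 of 8 against 3.63% of all probes, and again none was called lower, against 3.18%. The median log2 change of the 8 genes was 1.14 in LFA and 1.17 in NTL, where the median over all tested probes was −0.28 and −0.25. Both comparisons use the same 4 control arrays. *Gata6* in LFA and *Mertk* in NTL passed the adjusted p but were just under 2-fold, *Mertk* in LFA missed both criteria, and *Gas6* and *Cd163* did not pass the test. With only control and LFA arrays in the fit none of the 4 LFA calls was kept, at adjusted p-values from 0.0564 for *Folr2* to 0.0975 for *Timd4*. Every LFA array lay above every control array for 5 genes, *Siglec1*, *Folr2*, *Mertk*, *Cx3cr1*, and *Gata6*, as was so for 4.61% of probes with a value on all arrays. Every NTL array lay above every control array for the same 5 genes, against 6.35% of probes.

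Within the slides, with 1 or 2 control arrays each, the differences from control kept their direction for *Siglec1*, *Folr2*, *Cx3cr1*, *Gata6*, and *Mertk*. On slides 1, 2, and 3 the LFA difference was 1.37, 3.37, and 2.95 for *Siglec1*, 1.02, 1.39, and 1.75 for *Folr2*, and 1.73, 1.05, and 3.47 for *Cx3cr1*. On slides 2 and 3, the only ones with NTL arrays, the NTL difference was 4.39 and 1.84 for *Siglec1*, 1.79 and 1.57 for *Folr2*, 2.67 and 2.69 for *Cx3cr1*, and 1.08 and 1.18 for *Gata6*.

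**Figure D1:**
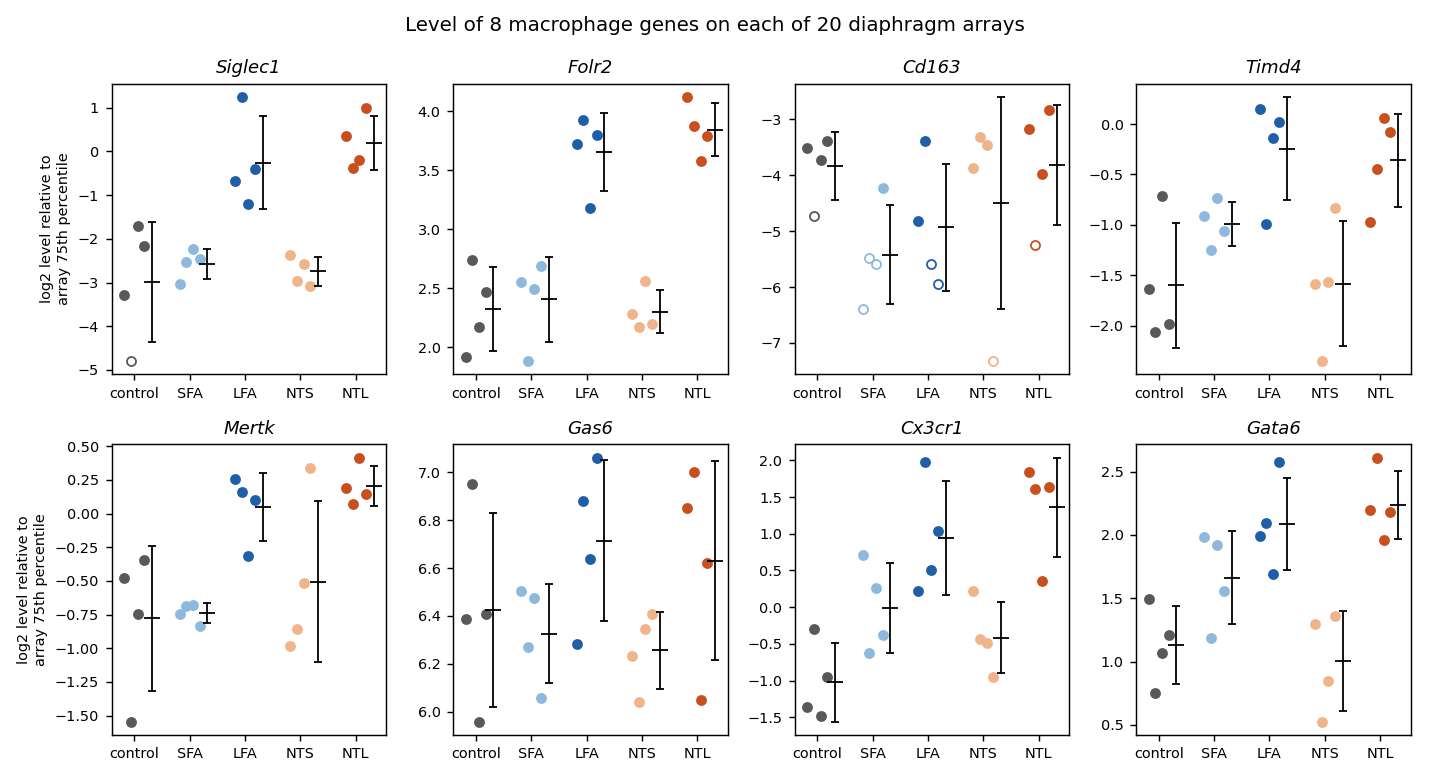
Level of each gene on each array, as log2 signal relative to the array's 75th percentile, by group. Filled points were well above background and open points were not; the black mark and bar beside each group are its mean and SD over 4 arrays. *Siglec1*, *Folr2*, *Mertk*, *Cx3cr1*, and *Gata6* have all LFA and NTL points above all control points, whereas *Cd163* scatters near background and *Gas6* overlaps in all groups.

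*Siglec1*, the sialic acid receptor also called CD169, changed most among the 8 genes. Its brighter probe lies at chr2:130895093-130895152 on the minus strand (NCBI37, the build of all probe positions here). In control mice its levels were −3.30, −4.79, −1.70, and −2.17, the second of which was not well above background. In LFA they were −0.68, 1.25, −1.21, and −0.41, and in NTL 0.35, −0.39, −0.20, and 0.98. All 8 arrays of the long fibers thus lay above all 4 control arrays, and the control arrays were themselves widely spread. The log2 change was 2.73 ± 0.57 (SE, n = 4 per group) in LFA, a 6.64-fold difference with a 95% interval of 2.90 to 15.2 and an adjusted p of 0.0136 by limma. In NTL it was 3.18 ± 0.57, or 9.05-fold (3.95 to 20.7), with an adjusted p of 0.00243. The call in LFA was lost without LFA replicate 2, the highest LFA array, at a log2 change of 2.23 and an adjusted p of 0.0545. The second *Siglec1* probe (chr2:130909693-130909752) was well above background on 8 of 20 arrays and on none of SFA. Its log2 changes of 0.57 in LFA and 1.03 in NTL were not called, and across the 20 arrays it followed the brighter probe with r = 0.67.

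*Folr2*, the folate receptor of tissue-resident macrophages, was called with narrow groups. Its probe lies at chr7:108988771-108988830, minus strand. Its levels were 1.92, 2.74, 2.18, and 2.47 in control. They were 3.72, 3.92, 3.18, and 3.80 in LFA and 4.12, 3.88, 3.58, and 3.79 in NTL. The lowest long-fiber array, at 3.18, was above the highest control array, at 2.74. The change was 1.33 ± 0.24 in LFA, or 2.51-fold (1.76 to 3.58), with an adjusted p of 0.00609 by limma, and 1.52 ± 0.24 in NTL, or 2.86-fold (2.01 to 4.08), with an adjusted p of 0.00113. *Folr2* was called in both comparisons with any single array left out.

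*Cd163*, the hemoglobin scavenger receptor, was near the detection limit. Its probe lies at chr6:124270436-124270495, plus strand. It was well above background on 12 of 20 arrays, 3 in control, 1 in SFA, 2 in LFA, 3 in NTS, and 3 in NTL. Control levels ran from −4.73 to −3.39, LFA levels from −5.94 to −3.38, and NTL levels from −5.25 to −2.84, so that the groups overlapped. The log2 change was −1.10 ± 0.79 in LFA (adjusted p = 0.407, limma) and 0.03 ± 0.79 in NTL (adjusted p = 0.990). These intervals, −2.75 to 0.56 and −1.63 to 1.68, leave room for changes larger than 2-fold in either group.

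*Timd4*, a receptor for phosphatidylserine on dying cells (probe at chr11:46657173-46657232, plus strand), was at −1.64, −2.06, −0.71, and −1.98 in control. It was at 0.15, −0.99, −0.14, and 0.02 in LFA and at −0.97, −0.45, 0.06, and −0.07 in NTL. In each long-fiber group 3 of 4 arrays lay above every control array, and control replicate 3 lay among the long-fiber arrays. The change was 1.36 ± 0.36 in LFA, or 2.56-fold (1.52 to 4.33), with an adjusted p of 0.0408 by limma, and 1.24 ± 0.36 in NTL, or 2.36-fold (1.40 to 4.00), with an adjusted p of 0.0416. Both calls were close to the threshold. Leaving out 1 array ended the call in 10 of 20 cases in LFA, with changes from 1.20 to 1.65, and in 11 of 20 in NTL, with changes from 1.09 to 1.54. The arrays without which both calls were lost were control replicates 1, 2, and 4, SFA replicates 1, 3, and 4, LFA replicate 4, and NTL replicate 4. The LFA call was also lost without LFA replicates 1 and 3, and the NTL call without NTS replicate 1 and NTL replicates 2 and 3. Both were also lost with the slide as a block (1.26 and 1.15), and within slide 3, from 1 LFA and 1 control array, the LFA difference was −0.28.

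*Timd4* is also a Kupffer cell gene. LFA replicates 1 and 3, with liver marker levels above 6, had *Timd4* levels of 0.15 and −0.14. LFA replicate 4, with a liver marker level of −0.90, had 0.02, and LFA replicate 2, with −1.15, had −0.99. The Kupffer cell lectin *Clec4f* went from −7.27, a value not well above background, to 2.82 over the arrays with the liver markers. *Timd4* had r = 0.28 with the mean liver marker level over 20 arrays and r = 0.39 after group means were removed. With the liver marker level as a covariate the *Timd4* change was 1.24 in LFA (adjusted p = 0.0567, limma) and 1.13 in NTL (adjusted p = 0.0557). Without the 5 arrays rich in liver transcripts it was 1.11 in LFA (adjusted p = 0.153) and was still called in NTL. The part of liver cells in the *Timd4* values was not tested.

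**Figure D2:**
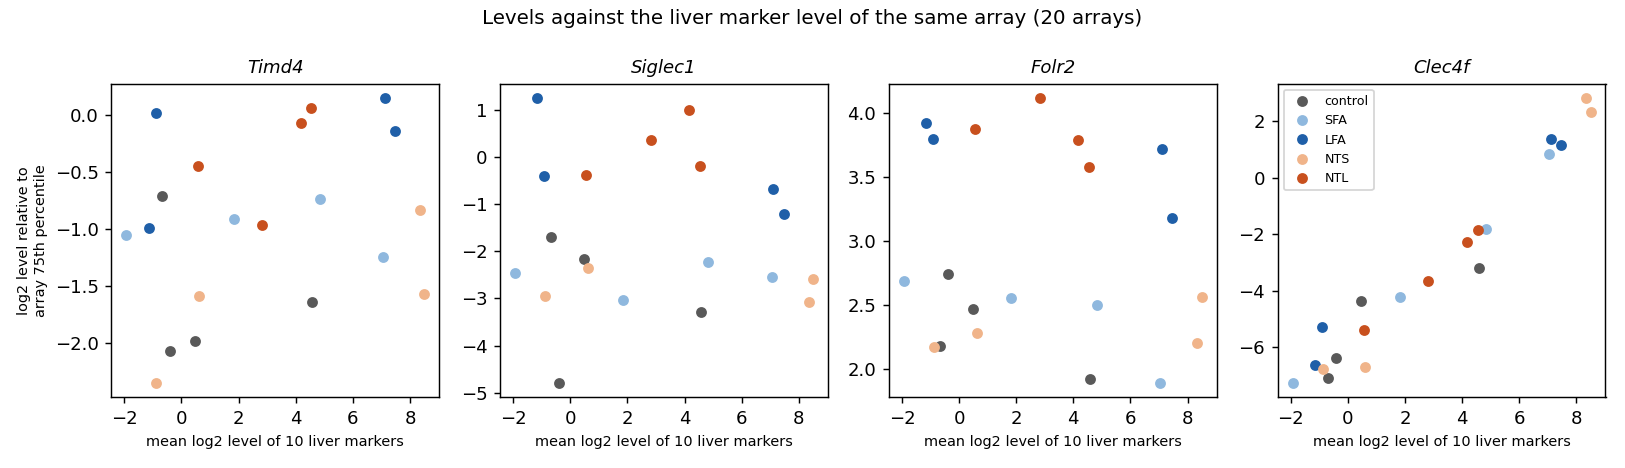
Level of *Timd4*, *Siglec1*, *Folr2*, and the Kupffer cell gene *Clec4f* (vertical, log2 relative to the array's 75th percentile) against the mean level of 10 liver markers on the same array (horizontal, log2), 1 point per array. *Clec4f* climbs along the liver markers from −7.27, a value not well above background, to 2.82 across the arrays. No control array has a liver level above 4.58, and at low liver levels *Timd4* overlaps between LFA (−0.99) and control (−0.71).

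*Mertk*, the receptor kinase for bridged apoptotic cells (probe at chr2:128627867-128627926, plus strand), had control levels of −0.48, −1.54, −0.74, and −0.34. Its levels were 0.26, 0.16, −0.32, and 0.10 in LFA and 0.19, 0.07, 0.42, and 0.14 in NTL. No long-fiber array overlapped with control, but the lowest, at −0.32, was hardly above the highest control array, at −0.34. The log2 change of 0.83 ± 0.29 in LFA had an adjusted p of 0.101 by limma. In NTL it was 0.98 ± 0.29 with an adjusted p of 0.0447, just short of 2-fold at 1.97-fold (1.29 to 3.01). *Gas6*, its secreted ligand (probe at chr8:13465444-13465503, minus strand), lay between 5.96 and 6.95 in control, 6.28 and 7.06 in LFA, and 6.05 and 7.00 in NTL. Its changes of 0.29 ± 0.26 in LFA (adjusted p = 0.506) and 0.21 ± 0.26 in NTL (adjusted p = 0.683) did not pass the test, and the upper limits of their 95% intervals, 0.83 and 0.75, were under a doubling.

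*Cx3cr1*, the fractalkine receptor (brighter probe at chr9:119957811-119957870, minus strand), was at −1.37, −0.30, −1.49, and −0.95 in control. It was at 0.22, 1.98, 0.51, and 1.04 in LFA and at 1.84, 1.61, 0.36, and 1.64 in NTL, all of them above control. The change was 1.96 ± 0.43 in LFA, or 3.90-fold (2.09 to 7.30), with an adjusted p of 0.0174 by limma, and 2.39 ± 0.43 in NTL, or 5.23-fold (2.80 to 9.79), with an adjusted p of 0.00252. The LFA call was lost without control replicate 1 (change 1.85), LFA replicate 2 (1.62), or LFA replicate 4 (1.93), with adjusted p-values of 0.0545, 0.0670, and just above 0.05. It was lost, too, when both probes were averaged (1.73, adjusted p = 0.0553), as was that of *Siglec1* (1.65, adjusted p = 0.0682). The second *Cx3cr1* probe changed by 1.49 in LFA and 2.37 in NTL without being called, with an SE of 0.85, and followed the brighter probe with r = 0.59 over 20 arrays.

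*Gata6*, the factor of cavity macrophages and mesothelium, had control levels of 1.49, 0.75, 1.07, and 1.21. They were 1.99, 2.09, 1.69, and 2.57 in LFA and 2.20, 2.61, 1.96, and 2.18 in NTL, again without overlap. The change in LFA, 0.96 ± 0.27, had an adjusted p of 0.0495 by limma but was just under 2-fold at 1.94-fold (1.32 to 2.87). In NTL it was 1.11 ± 0.27, or 2.16-fold (1.46 to 3.18), with an adjusted p of 0.0171, and was under 2-fold at 0.98 without control replicate 2 or without NTL replicate 2. The NTL call was lost with the slide as a block (1.11, adjusted p = 0.0522). In LFA it was called without LFA replicate 3 (1.09) and without the 5 arrays rich in liver transcripts (1.20). None of the 12 mesothelial markers was called in LFA or NTL against control. Their log2 changes had medians of 0.44 and −0.36, where the medians over all tested probes were −0.28 and −0.25. In NTL against NTS 1 of the 12 was called higher. The part of mesothelial cells in the *Gata6* values was not tested.

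Sequence was at hand from RefSeq (GRCm38.p6) for 6 of the 8 genes, as the 250 bases before and the 50 after the start of transcription. *Timd4*, *Folr2*, and *Cx3cr1* are shown because they were called in both long-fiber groups. Capitals mark the letters TGCTGA, the core of the recognition element of MAF factors, which act in resident macrophages, on either strand; the letters GAGGAA, the core bound by PU.1, were searched on both strands too and are in none of these windows. TGCTGA is found in 19.5% and GAGGAA in 28.3% of all 32851 promoter windows of this length. The windows are chr11:46810549-46810848 (plus strand) for *Timd4*, chr7:101845282-101845581 (minus strand) for the first of the 2 listed starts of *Folr2*, and chr9:120068247-120068546 (minus strand) for *Cx3cr1*, each written 5′ to 3′ along the gene.
Timd4: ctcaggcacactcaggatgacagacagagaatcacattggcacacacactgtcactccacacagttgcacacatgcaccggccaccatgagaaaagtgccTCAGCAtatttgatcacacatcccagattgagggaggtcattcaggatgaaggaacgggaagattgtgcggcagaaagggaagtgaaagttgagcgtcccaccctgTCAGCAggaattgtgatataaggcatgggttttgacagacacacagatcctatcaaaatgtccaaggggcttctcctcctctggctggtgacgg
Folr2: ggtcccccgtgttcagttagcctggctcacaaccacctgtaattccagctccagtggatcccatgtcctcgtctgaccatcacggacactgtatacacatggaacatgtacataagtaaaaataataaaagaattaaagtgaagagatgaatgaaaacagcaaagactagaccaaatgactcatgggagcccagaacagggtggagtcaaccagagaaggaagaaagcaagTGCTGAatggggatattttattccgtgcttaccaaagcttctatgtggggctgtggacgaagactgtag
Cx3cr1: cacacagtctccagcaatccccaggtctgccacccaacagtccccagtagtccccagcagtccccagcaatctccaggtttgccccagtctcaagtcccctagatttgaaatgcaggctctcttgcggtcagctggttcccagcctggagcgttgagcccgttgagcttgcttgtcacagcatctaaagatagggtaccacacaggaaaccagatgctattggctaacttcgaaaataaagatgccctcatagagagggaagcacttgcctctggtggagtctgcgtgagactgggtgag
*Timd4* held the letters at 2 places, starting 150 and 44 bases before the start of transcription, and each *Folr2* window held them at 1 place. The windows of *Cx3cr1*, *Mertk*, *Gas6*, and *Cd163* held neither set of letters. A match of letters in a promoter is a description and not a binding site.

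The short fibers did not move these genes past the test. In SFA against control none of the 8 genes was called, as was so for all probes (0% called), and 843 of the 36930 probes had an unadjusted p under 0.05 by limma, *Cx3cr1* among them. The *Cx3cr1* levels in SFA were 0.71, −0.62, 0.26, and −0.38, and 2 of these 4 lay above every control array. The change was 1.02 ± 0.43, with an interval of 0.11 to 1.92, an unadjusted p of 0.0297, and an adjusted p of 0.999. *Gata6* changed by 0.53 ± 0.27 and *Timd4* by 0.61 ± 0.36, and *Cd163* by −1.58 ± 0.79 with 1 of 4 SFA arrays well above background. No gene had every SFA array above every control array, against 0.56% of probes. In NTS none of the genes was called either (0% of probes called, 1288 with an unadjusted p under 0.05), and none of the 8 had an unadjusted p under 0.05. The changes in NTS ran from −0.66 for *Cd163* to 0.61 for *Cx3cr1*. *Folr2* was closest to control, at 0.08 (−0.43 to 0.59) in SFA and −0.02 (−0.54 to 0.49) in NTS.

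Long fibers were compared with short fibers of the same material and mass. In LFA against SFA only *Folr2* was called, 1 of 8 against 1.03% of probes called higher, at 1.25 ± 0.24 with an adjusted p of 0.0142 by limma. This call was lost without SFA replicate 2 (1.07), LFA replicate 2 (1.16), or LFA replicate 4 (1.20). *Siglec1* showed the larger difference, 2.31 ± 0.57, with an adjusted p of 0.0581, and was not called. *Cx3cr1* differed by 0.95 ± 0.43 (adjusted p = 0.373) and *Timd4* by 0.75 ± 0.36 (adjusted p = 0.407), with SFA means between those of control and LFA. The median log2 difference of the 8 genes was 0.77, where the median over all tested probes was −0.17. *Cd163*, at 0.49, was well above background on only 1 SFA and 2 LFA arrays.

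In NTL against NTS 5 of 8 genes were called higher, against 4.89% of probes. *Siglec1* differed by 2.93 ± 0.57 (adjusted p = 0.00333, limma), *Cx3cr1* by 1.78 ± 0.43 (adjusted p = 0.0153), and *Folr2* by 1.54 ± 0.24 (adjusted p = 0.000668). *Gata6* differed by 1.23 ± 0.27 (adjusted p = 0.00769) and *Timd4* by 1.23 ± 0.36 (adjusted p = 0.0415). NTL and NTS arrays shared only slide 2, with 1 NTL and 2 NTS arrays, and with the slide as a block *Folr2* alone was called. The differences on that slide were 3.01 for *Siglec1*, 1.94 for *Cx3cr1*, 1.90 for *Folr2*, and 1.28 for *Gata6*. The call of *Cx3cr1* was lost without NTL replicate 1 (1.62) or NTL replicate 4 (1.68), and without the 5 arrays rich in liver transcripts (1.47, adjusted p = 0.0544). That of *Timd4* was lost without any of 10 single arrays, with differences from 0.97 to 1.48.

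**Figure D3:**
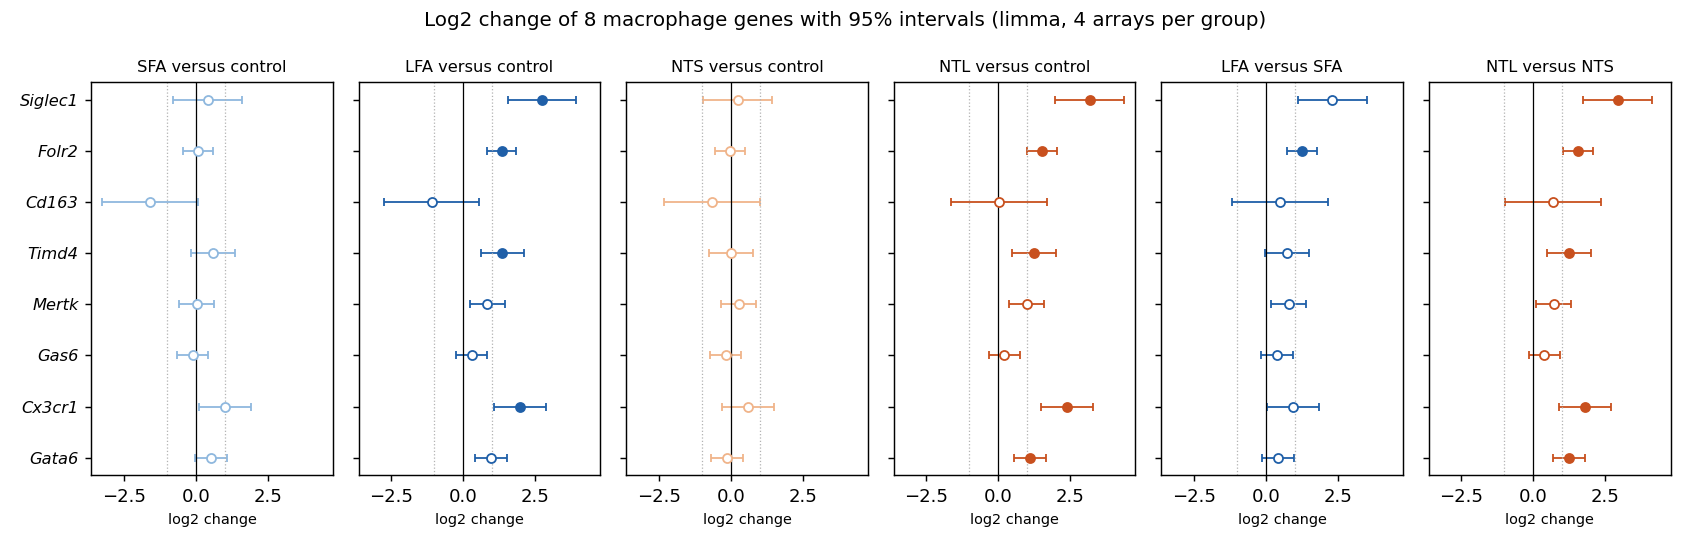
Log2 change of each gene (horizontal) in 6 comparisons, with 95% intervals from limma over 4 arrays per group; filled points were called, open points were not, and dotted lines mark a 2-fold change. *Siglec1*, *Folr2*, *Timd4*, and *Cx3cr1* are called in LFA and NTL against control, *Gata6* in NTL, and no gene in SFA or NTS.

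Asbestos and nanotubes were given at different masses, and their values stand side by side. No gene was called between LFA and NTL (0% of probes called, 572 of 36930 with an unadjusted p under 0.05 by limma). The difference was −1.12 (−2.78 to 0.54) for *Cd163*, well above background on 2 LFA and 3 NTL arrays, and −0.45 (−1.64 to 0.75) for *Siglec1*. The interval of *Folr2* was −0.70 to 0.32. The length effect of asbestos, LFA minus SFA, was also set against that of nanotubes, NTL minus NTS, and no gene was called (0% of probes called). *Gata6* had the smallest unadjusted p of the 8, 0.0477, and no adjusted p by limma was near the threshold. Its length effect was 0.43 for asbestos and 1.23 for nanotubes, and the difference of −0.80 had an interval of −1.60 to −0.01.

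Macrophage genes in general were higher in the same mice. A pan-macrophage score was taken as the mean level of *Adgre1*, *Csf1r*, *Cd68*, *Fcgr1*, *Aif1*, *Tyrobp*, *Lyz2*, and *Itgam*. The lowest and highest scores were 1.97 and 2.74 in control, 2.24 and 2.73 in SFA, 3.43 and 4.39 in LFA, 2.22 and 2.58 in NTS, and 4.10 and 4.30 in NTL. Of its 8 genes, 6 were called higher in LFA and 6 in NTL, with *Adgre1* (F4/80) at 2.13 and 2.46 and *Cd68* at 1.95 and 2.39, whereas *Itgam* (CD11b) changed by −0.80 and −0.60 without being called. The score was then subtracted from every probe on its array, which asks whether a gene moved more or less than the macrophage genes as a whole. After this step 80.2% of all probes were called lower in LFA and 85.4% in NTL, and 0.566% and 0.783% were called higher, so a gene called lower differs little from most of the array.

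Relative to the score, *Folr2* was not called. Its relative levels averaged −0.01 ± 0.12 (SD, n = 4) in control, −0.22 ± 0.32 in LFA, and −0.34 ± 0.27 in NTL, with changes of −0.21 (−0.68 to 0.26) and −0.33 (−0.81 to 0.14). In each long-fiber group 3 of 4 arrays lay below every control array, and the NTL change was −0.87 with a score from *Cd68* and −0.68 without *Itgam* in the score, still short of 2-fold. *Timd4* (−0.18 in LFA, −0.61 in NTL) and *Cx3cr1* (0.43 and 0.54) were not called either. With a score from *Cd68*, *Timd4* was called lower in NTL (−1.14, adjusted p = 0.0279, limma). Relative to the score the 2 probes of *Siglec1* went opposite ways. The dimmer, well above background on 8 of 20 arrays, changed by −0.97 in LFA and −0.82 in NTL without a call. The brighter exceeded the score by 1.19 ± 0.57 in LFA (adjusted p = 0.0615, limma). In NTL it did so by 1.33 ± 0.57 (adjusted p = 0.0380, called higher), where 2 of 4 NTL arrays lay above every control array. This call was lost with the slide as a block (0.95), with the replicate block, with the score without *Itgam* (0.98), with a score from *Adgre1* and *Csf1r* (1.11) or from *Cd68* (0.79), and without control replicate 1, control replicate 2, NTL replicate 1, or NTL replicate 4. *Gas6* was called lower in both, at −1.25 in LFA and −1.64 in NTL, as were 80.2% and 85.4% of all probes. Before the score was subtracted its changes, 0.29 and 0.21, had not passed the test, so its relative values differ little from most of the array. *Cd163* also passed as lower in both, but it was well above background on only 12 of 20 arrays, and subtracting a score that rose lowers a signal near background by construction, so nothing is read from its relative values. Its NTL call was lost in 5 of 20 fits with 1 array left out (control replicates 1, 3, and 4 and NTL replicates 2 and 3). *Mertk* changed less than the score, by −0.71 in LFA (adjusted p = 0.0884, limma) and −0.87 in NTL (adjusted p = 0.0391), and *Gata6* by −0.58 (adjusted p = 0.0846) and −0.74 (adjusted p = 0.0301), all short of 2-fold. In NTL *Mertk* was called lower in 4 and *Gata6* in 2 of 6 alternatives, and both were without control replicate 2. In LFA *Mertk* was called lower with a score from *Cd68* (−1.12), without *Itgam* in the score (−1.04), and without control replicate 2 (−1.10).

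**Figure D4:**
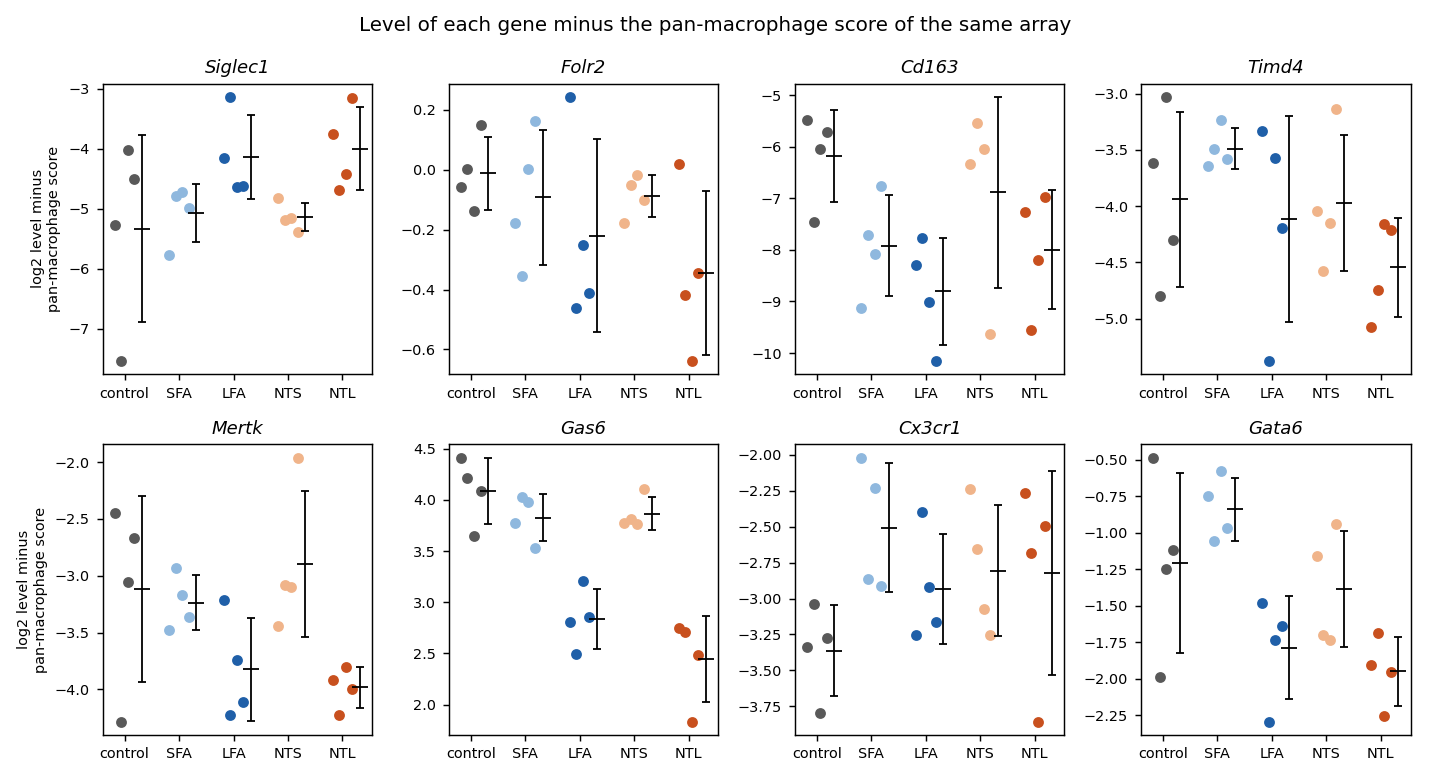
Level of each gene minus the pan-macrophage score of the same array (vertical, log2), by group, with mean and SD over 4 arrays at the black mark. *Folr2* lies between −0.64 and 0.24 on all arrays, and *Siglec1* has its higher values in LFA and NTL with wide overlap. *Gas6* is lower in LFA and NTL than in control, as most probes of the array are after this step.

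Lists of other genes place the 8 among their relatives. Beside the counts of all lists stand the shares of all tested probes called. These were 2.22% higher and 1.72% lower in LFA, and 3.63% higher and 3.18% lower in NTL. Of 19 further genes of interstitial resident macrophages, 6 were called higher in LFA and 5 in NTL, with median changes of 0.82 and 0.87. The LFA count ranged from 2 to 7 with 1 array left out and moved by over 1.5 times without control replicates 1, 3, or 4 or LFA replicates 1, 2, or 4. The mannose receptor *Mrc1* rose by 1.93 and 2.25, the factor XIII subunit *F13a1* by 1.48 and 1.64, and the lectin *Clec10a* by 1.46 and 1.49. *Lyve1*, the hyaluronan receptor of perivascular macrophages, rose in LFA (1.17) and was at 0.88 in NTL without a call. Of 18 genes of serous cavity macrophages, 5 were called higher in LFA and 6 in NTL, with medians of 0.62 and 0.82. These counts were as low as 3, in LFA without control replicates 1 or 4 or LFA replicates 1 or 4 and in NTL without control replicate 1 or NTL replicate 4. The complement receptor *Vsig4* rose by 4.23 and 3.67, the scavenger receptor *Marco* by 3.92 and 3.56, and the secreted *Cd5l* by 2.95 and 2.86. *Garnl3*, at 0.96 and 0.97, and *Icam2*, at −0.07 and −0.24, were not called.

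*Vsig4*, *Marco*, and *Cd5l* are Kupffer cell genes as well. *Vsig4* was at 3.01 to 5.11 in LFA and −0.79 to 0.79 in control, and it reached 4.45 on NTS replicate 4, an array rich in liver transcripts, where the NTS range began at −1.03. *Marco* stayed between 0.50 and 1.98 in NTS and lay between 5.71 and 6.51 in LFA. Of 8 Kupffer cell markers 4 were called higher in LFA (as few as 2 without control replicates 1 or 2 or LFA replicates 1 or 2) and 4 in NTL. *Clec4f*, found in Kupffer cells alone, changed by 2.91 and 1.95 with adjusted p-values of 0.456 and 0.666 by limma. It was not well above background on several arrays, control replicates 2 and 3 and LFA replicates 2 and 4 among them. Of 10 liver markers none was called, and their median changes were 2.31 in LFA and 2.34 in NTL, beside 2.07 in SFA and 3.32 in NTS. The part of liver cells in the *Vsig4* and *Cd5l* values was not tested.

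Of 24 genes of apoptotic cell clearance, 4 were called higher in LFA and 5 in NTL, with medians of 0.24 and 0.32. They were complement C1q (*C1qa* at 1.89 and 2.26, *C1qc* at 1.61 and 1.88, and *C1qb* in NTL at 2.14), the phosphatidylserine receptor *Havcr2* (1.34 and 1.82), and *Cd300lb* (2.75 and 3.34). The sister kinases of *Mertk*, *Axl* at 0.12 and 0.28 and *Tyro3* at 0.41 and 0.72, and the bridging ligands *Pros1* and *Mfge8* were not called. Of 15 ligands and partners of the 8 genes, none was called in LFA and only *Cx3cl1*, the ligand of Cx3cr1, was called in NTL, at 1.47 after 1.01 in LFA. That count in NTL ranged from 0 to 4 with 1 array left out, and moved without control replicates 1, 2, or 4, NTS replicate 4, or NTL replicates 1, 2, or 4. Of 25 regulators of macrophage maturation, only *Csf1r*, also a gene of the pan-macrophage score, was called higher in LFA (1.34), against 2.22% of all probes. In NTL *Csf1r*, *Irf8*, *Zeb2*, and *Runx1* were called higher, against 3.63%, and *Rxra* was called lower (−1.01), against 3.18%. These 5 calls in NTL became as few as 1 with 1 array left out and moved by over 1.5 times without control replicates 1, 2, or 4 or NTL replicates 1, 2, or 4.

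Of 15 markers of monocytes recruited from blood, 6 were called higher in LFA and 7 in NTL, with medians of 1.32 and 1.36. The LFA count ranged from 1 to 7 with 1 array left out and moved by over 1.5 times without control replicates 1 or 4 or LFA replicates 2 or 4. Among them *Ccr2* rose by 1.59 and 1.92 and *Vcan* by 1.99 and 2.12, whereas *Ly6c1*, *Ace*, and *Treml4* were not called. Changes in this list went down to −0.82 in LFA and −1.40 in NTL, and none was called lower. Of 11 skeletal muscle markers, 2 were called lower in LFA and 4 in NTL, with medians of −1.01 and −1.15. The LFA count ranged from 0 to 4 and moved by over 1.5 times in 13 of 20 fits with 1 array left out, each control and each LFA array among them, along with SFA replicate 3, NTS replicates 1 and 4, and NTL replicates 1 and 4. The summed level of the muscle markers, as log2, was 12.1 to 12.7 in control, 11.1 to 11.6 in LFA, and 11.1 to 11.3 in NTL. The mean level of the monocyte markers ran from 0.58 to 1.37 in control, 1.57 to 2.28 in LFA, and 1.73 to 2.47 in NTL. The part of this shift in tissue makeup in the changes of the 8 genes was not tested. No list gene was called in SFA or NTS, as was so for all probes (0% called).

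**Figure D5:**
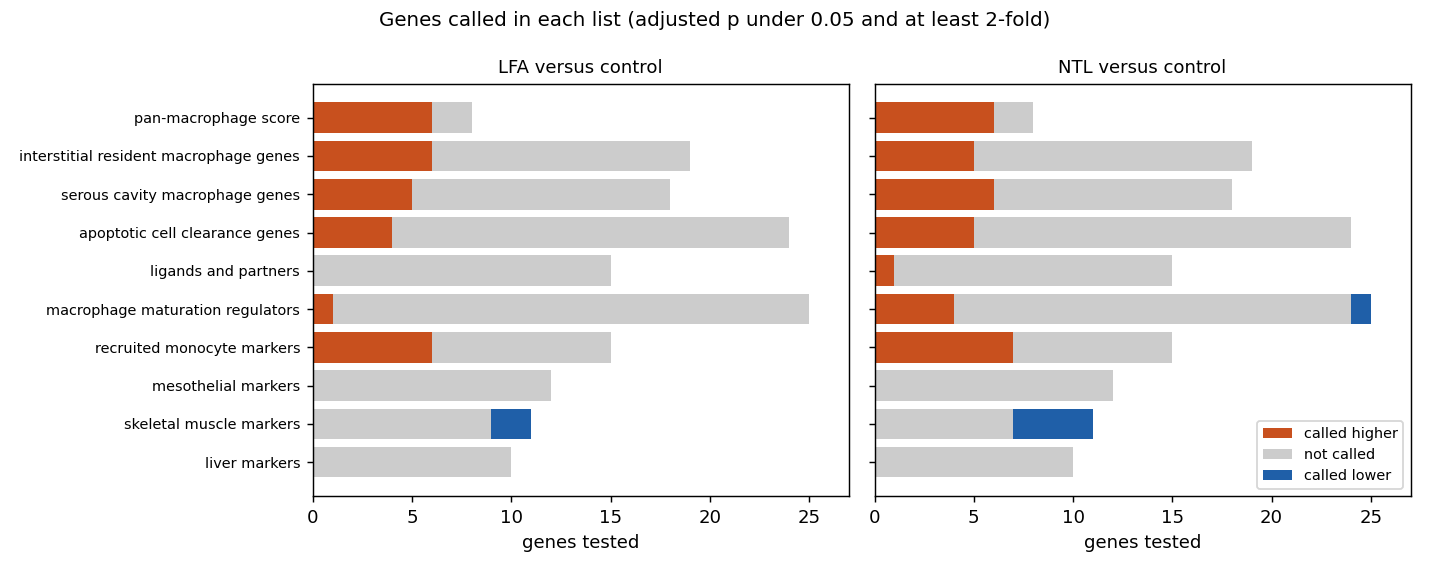
Number of genes called higher, not called, and called lower (horizontal, genes tested) in 10 of the lists, for LFA and NTL against control. The pan-macrophage genes have 6 of 8 called higher in both groups, the resident, cavity, clearance, and monocyte lists have 4 to 7 genes each, and the mesothelial and liver lists have none.

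The genes whose levels most resembled each member over the 20 arrays were drawn from 14299 genes with a symbol that were well above background on all arrays. All share the same arrays and group differences, so the correlations are descriptions. *Folr2* was closest to *Ms4a6d* (r = 0.97), the chemokine gene *Ccl8* (r = 0.97), and *Timp1* (r = 0.96), and after group means were removed these were 0.75, 0.74, and 0.67. *Siglec1* was closest to *Ncf1*, a subunit of the phagocyte oxidase (r = 0.94, 0.75 within groups), and *Timd4* to the scavenger receptor gene *Msr1* (r = 0.89, 0.72 within groups). *Cx3cr1* was nearest 3300005D01Rik (r = 0.93) and then the collagen gene *Col5a2* (r = 0.93, 0.80 within groups), and *Gata6* was nearest *Vcan* (r = 0.94, 0.79 within groups) and *Pcdh7* (r = 0.94). *Mertk* was nearest *Tcirg1*, a subunit of the vacuolar proton pump (r = 0.91), and *Gas6* was nearest *Stat3* (r = 0.90, 0.88 within groups). *Cd163*, dim as it was, followed 4931402H11Rik (r = 0.91) and *Baz1b* (r = 0.90), neither of which was called.

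The members did not all vary together within groups. After group means were removed, *Cx3cr1* and *Folr2* had r = 0.62 and *Cx3cr1* and *Gas6* r = 0.71 over the 20 arrays, whereas *Cx3cr1* and *Timd4* had r = −0.54. With the pan-macrophage score, *Folr2* had r = 0.97 over all arrays and 0.71 within groups, and *Timd4* r = 0.67 and −0.23. With the liver marker level within groups, *Cx3cr1* had r = −0.53, *Folr2* −0.48, *Mertk* 0.40, and *Timd4* 0.39.

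The methods' test of the study, which first asks for a 2-fold difference of a fiber group from control and then tests all 5 groups together with unequal variances, passed 4 of the 8 genes against 7.16% of all probes. *Folr2* had an adjusted p of 0.00605, *Siglec1* 0.0127, *Gata6* 0.0319, and *Cx3cr1* 0.0416. *Timd4* did not pass (adjusted p = 0.108), nor did *Cd163* (0.290), and *Mertk* and *Gas6* did not reach the 2-fold difference.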

How the data were processed

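RNA from 20 diaphragms was labeled by the authors with a single dye and hybridized to 60K mouse arrays. The deposited scanner output, from Agilent Feature Extraction 10.7.3.1 per the labels, gives each spot an intensity with the background already subtracted. Deposited log2 values, made by the authors in GeneSpring and centered on each probe's median, with 1 mean per group and no replicates, served as an untested alternative. Spots flagged as outliers were left out, spots of a probe were averaged, and log2 intensities were set relative to the array's 75th percentile. A probe was tested when well above background on at least 4 arrays. A mean per group was fitted over all 20 arrays with limma 3.58.1 (R 4.3.3), and steps were tested on simulated data. Python 3.11.15 (pandas 2.3.3, matplotlib 3.10.9) read files and drew figures. Any 2 arrays correlated between 0.865 and 0.986. The 8 genes and the 18 lists were chosen with earlier results of these data known. All members are named; from a list, genes called with the largest changes; as nearest genes, those among the 3 with the highest r; other list genes were named after their values were seen. Alternatives were other background corrections, scalings, filters, blocks, groups in the fit, and arrays left out; the liver covariate, the removal of liver-rich arrays, the call on adjusted p alone, and the score without *Itgam* were chosen after seeing the data.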

Additional observations from a re-analysis of the deposited data

Results flagged for a closer look

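Among 50 sets of 4 arrays (8 genes and 2 marker means in 5 groups), 2 held an array far from the other 3, and chance flags about 1 in 20 sets. *Cd163* on NTS replicate 4 was at −7.32, not well above background, against −3.87 to −3.32 on the other NTS arrays, a gap of 0.862 of the group's range. *Cx3cr1* on NTL replicate 3 was at 0.36 against 1.61 to 1.84 on the other NTL arrays, a gap of 0.85 of the range, and without that array *Cx3cr1* was still called in NTL. Neither was weighed further.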

How the results depend on the processing

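No called change of a member turned its direction under any alternative. Members called in LFA against control, 4, became 2 with probes of a gene averaged and 0 with only the compared groups in the fit, and ranged from 2 to 4 with 1 array left out. In NTL the 5 became 3 with the slide as a block, without *Timd4* and *Gata6*, and ranged from 3 to 5. In LFA against SFA the 1 became 2 under normexp, quantile normalization, or a trended robust prior, with *Siglec1* as the second, and 0 with only the compared groups, ranging from 0 to 2. In NTL against NTS the 5 became 1 with the slide as a block and ranged from 3 to 5. Relative to the score, calls in both directions were counted, and in the main fit 80.2% of all probes in LFA and 85.4% in NTL were called lower. The LFA count stayed between 2 and 3. In NTL the 3 were *Siglec1*, called higher, and *Gas6* and *Cd163*, called lower. They became 5 with the score from *Cd68*, which lost *Siglec1* (0.79) and added *Timd4*, *Mertk*, and *Gata6* as lower. The NTL count was 1 with the replicate block and ranged from 1 to 4 with 1 array left out. The methods' test passed 2 genes in place of 4 with probes averaged and ranged from 2 to 4. The replicate numbers did not pair the arrays. The replicate block left 4 members called in LFA and 5 in NTL against control, and 0 of 20 arrays correlated best with an array of the same number. SFA and NTS kept 0 members under every alternative. Under the alternatives other than leaving out 1 array, at most 1 of all tested probes was called in SFA and 0 in NTS. Quantile normalization moved the median of all probes (LFA −0.28 to −0.08, NTL −0.25 to −0.09) and raised the share of called probes that were higher (LFA 56.4% to 75.9%, NTL 53.3% to 72.3%); with it *Timd4* lost its call in LFA and NTL and *Mertk* gained one in NTL. The cause of these shifts was not tested. Uncalled values near 0 changed sign 41 times, 13 of them for *Cd163*, whose dim signal limits it most.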

Other observations

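Over all tested probes, 2.22% were called higher and 1.72% lower in LFA, and 3.63% higher and 3.18% lower in NTL. Of 10 fibroblast markers, *Col3a1* was called higher in LFA (1.21 on the log2 scale, kept in 11 of 20 fits with 1 array left out). In NTL *Col1a1* (1.67), *Col3a1* (1.64), *Lum* (1.49), and *Col1a2* (1.30), all genes of the collagen matrix, were called higher. Of 6 tested dendritic cell markers none was called in LFA and 3 were in NTL, the integrin *Itgax* (2.47), the homing receptor *Ccr7* (1.74), and *Flt3* (1.04), a count that was as low as 1 without control replicate 1 or control replicate 4. Of 12 NK and T cell markers only the granzyme *Gzmb* was called, at 1.85 in LFA and 1.95 in NTL. Of 6 adipocyte markers, *Cidec* was called lower in LFA (−1.03, kept in 4 of 20 such fits), and *Retn* (−1.95), *Cidec* (−1.53), and *Adipoq* (−1.39) in NTL. None of 6 B cell, 9 endothelial and smooth muscle, and 4 tested lung markers was called in either. Between LFA and NTL no list gene was called (0% of all probes called), so none of these lists was shown to differ between the long fibers.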
